A study of Mus musculus with 10 samples.

Results

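The 10 apolipoprotein genes Apoa1, Apoa2, Apoa4, Apoa5, Apob, Apoc1, Apoc2, Apoc3, Apoe and Apom were followed in the liver, where they were taken by gene name from the 54532 genes of the expression table. All 10 were found, and all 10 passed the filter on low values. The study asked which secreted liver factors change when apoptosis signal-regulating kinase 1 (ASK1, gene Map3k5), a stress-activated kinase, is overexpressed in hepatocytes of mice on a high fat diet (HFD). Bulk RNA sequencing covered livers of 10 mice on a C57BL/6J background, 5 ASK1f/f and 5 ASK1+hep, after 7 weeks of HFD started at the age of 6 weeks and after 5 h of fasting. Both groups carry a construct in the ROSA26 locus in which a floxed stop cassette precedes murine ASK1 cDNA. In ASK1+hep mice Cre under the albumin promoter removes the stop in hepatocytes, while ASK1f/f littermates served as controls. The sex of the sequenced mice is not given in the labels, and the labels list each liver as a sample of its own.

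Apolipoproteins are the protein part of lipoproteins, the particles that carry triglycerides and cholesterol through blood, and the liver is their main source together with the intestine. ApoB forms the backbone of very-low-density lipoprotein, ApoA-I and ApoA-II that of high-density lipoprotein, and the exchangeable ApoC proteins and ApoE move between particles and set how fast triglycerides are hydrolysed and remnants are taken up. Their genes are under the control of liver-enriched transcription factors and nuclear receptors, and several of them lie next to each other in gene clusters.

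Values are FPKM, reads per unit of gene length in a library of standard size, so that levels of different genes can be set side by side. Each library held 13367742 to 16163378 reads on genes. The level of Map3k5 went against 1 label. It was highest, at 19.8 FPKM, in ASK1f/f replicate 5 by label, against 4.71 to 6.88 FPKM in the other 4 controls and 7.68 to 16.4 FPKM in the 5 ASK1+hep livers, with transgene and endogenous reads counted together. Fgf21, the hormone gene in the title of the series, was at 2.46 to 4.74 FPKM in controls and at 7.40 to 30.1 FPKM in ASK1+hep livers (adjusted p = 0.355, limma). Its groups did not overlap, and its unadjusted p of 3.82e-05 (limma) ranked 1 among the 13306 genes tested. The paper reported it as highly upregulated, with DESeq2 on counts. With limma on FPKM, 0 of all genes tested passed adjustment, so a gene that did not pass is not shown to be unchanged. Some libraries also differed by gene length. The median log2 deviation of 92 other abundant genes under 1000 bases, taken from each gene's median over the livers, was 0.36, 1.06 and 0.33 in ASK1+hep replicates 2, 3 and 4 and -0.16 to 0.02 in the other 7 livers. Over all genes tested, Spearman's rho between deviation and length was -0.16, -0.32 and -0.34 in these 3 livers. It was of the other sign, 0.31, in ASK1+hep replicate 5, and 0.005 to 0.21 elsewhere. Length and GC content together took up 24.9% of the squared deviation in ASK1+hep replicate 5, 16.7% in replicate 3 and 1.39 to 9.04% elsewhere. Mitochondrially encoded genes took 10.9% of reads in ASK1+hep replicate 3, 6.74% in replicate 2 and 4.19 to 5.76% elsewhere.

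The members lie at 5 places of the genome, given here on GRCm38. Apoa1 (ENSMUSG00000032083), Apoc3 (ENSMUSG00000032081), Apoa4 (ENSMUSG00000032080) and Apoa5 (ENSMUSG00000032079) form a cluster at chr9:46228580-46271919, with gaps of 2466, 5059 and 25173 bases between them and Apoc3 alone on the minus strand. Apoc2 (ENSMUSG00000002992), Apoc1 (ENSMUSG00000040564) and Apoe (ENSMUSG00000002985) lie at chr7:19671579-19699188, all on the minus strand. Apoa2 (ENSMUSG00000005681) is at chr1:171225054-171226379, Apob (ENSMUSG00000020609) at chr12:7977648-8016835 and Apom (ENSMUSG00000024391) at chr17:35128997-35132050. The 250 bases before the RefSeq start of Apoa2 and Apob are shown, on the plus strand at chr1:171224804-171225053 and chr12:7977427-7977676 of GRCm38.p6. Among members with the letters TATAAA in this window, their transcripts moved most closely in opposite directions. TATAAA is in capitals, and whether it acts as a TATA box was not tested.
Apoa2: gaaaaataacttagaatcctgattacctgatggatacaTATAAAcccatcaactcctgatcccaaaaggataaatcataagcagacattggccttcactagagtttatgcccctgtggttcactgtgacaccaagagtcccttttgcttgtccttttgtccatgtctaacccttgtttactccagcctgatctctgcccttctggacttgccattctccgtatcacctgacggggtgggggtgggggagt
Apob: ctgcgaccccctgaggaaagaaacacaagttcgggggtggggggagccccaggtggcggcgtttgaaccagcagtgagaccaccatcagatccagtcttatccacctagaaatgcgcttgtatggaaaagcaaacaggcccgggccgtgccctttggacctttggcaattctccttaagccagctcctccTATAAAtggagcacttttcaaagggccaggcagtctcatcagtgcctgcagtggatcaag

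RefSeq promoters were found for 8 of the 10 genes and not for Apoc1 and Apoc3. Apoa2, Apoa5 and Apoe had 2, 2 and 3 of them, but a single window was read per gene. The RefSeq start lay inside the gene bounds given above by 249 bases for Apom, 148 for Apoa4, 50 for Apoa1 and 29 for Apob. These windows thus hold part of the gene, for Apom almost wholly. TATAAA, the core of the TATA box, was read on both strands and stood in 3 of the 8 windows, 212 bases before the start of Apoa2, 56 before that of Apoa5 and 60 before that of Apob, against 12.4% of all 32851 promoter windows of this length. AGGTCA, a nuclear receptor half-site, stood in the Apoc2 window alone of the 8 and in 14.0% of all windows, and GTTAAT, an HNF1 half-site, likewise in that of Apoc2 and in 6.43%. CAAAGTCCA, an HNF4 core, and TGATGNAA, the core of an amino acid response element, stood in none of the 8 windows and in 0.384% and 3.45% of all. None of these motif matches overlapped another. They are matches of letters, and whether any of them is in use, as for TATAAA 212 bases before the start of Apoa2, was not tested.

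Apolipoprotein mRNAs were among the most abundant of the liver. Apoa2 had the highest mean over the 10 livers at 14258 ± 7528 FPKM (SD, n = 10), which placed it 3 among all genes, followed by Apoe at 13426 ± 4293, Apoa1 at 9678 ± 3202, Apoc1 at 4857 ± 1800 and Apoc3 at 2505 ± 1488 FPKM. Apoa2 exceeded Apoe in only 4 of 10 livers, so the order of this pair was not fixed, while Apoe, Apoa1, Apoc1 and Apoc3 kept their order in 10 of 10 livers. Apoa4 (464 ± 320 FPKM) and Apoa5 (452 ± 112 FPKM) did not differ beyond their spread, with Apoa4 higher in 4 of 10 livers. Apob followed at 282 ± 63.0 FPKM, below Apoa5 in 8 of 10 livers, and Apom at 168 ± 35.1 FPKM. Apoc2 was listed far lower, at 4.98 ± 1.40 FPKM and 42 to 118 reads per liver. However, 79.5% of its exonic bases are shared with the same-strand gene Gm44805, itself listed at 0 to 4 reads per liver. Reads on the shared bases were thus hardly counted to Gm44805. Whether they were left out for Apoc2 too is not given in the sources used here. Its FPKM is per 813 bases, so its level is uncertain and may be too low. The plot of member values by liver shows these levels.

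**Figure D1:**
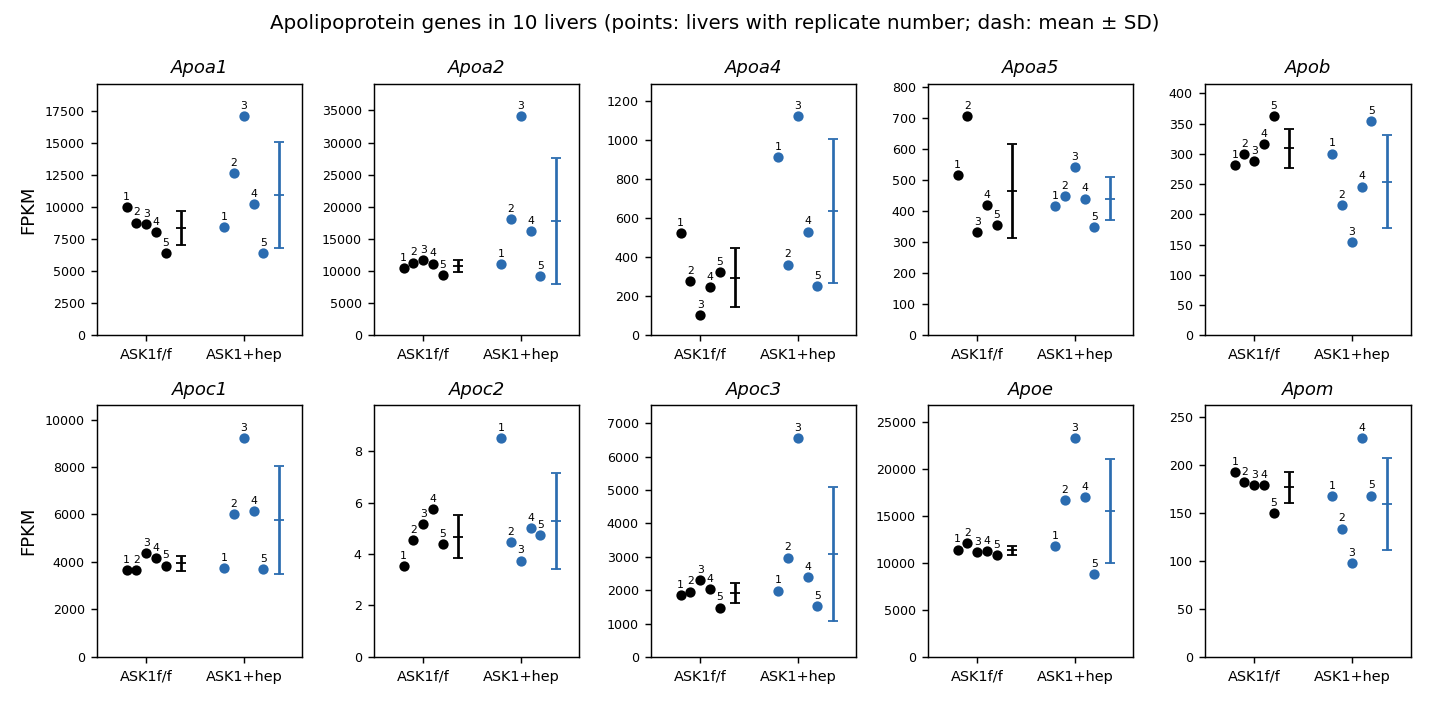
FPKM of the 10 apolipoprotein genes (y axis, from 0, a scale of its own in each panel) in 5 ASK1f/f livers (black) and 5 ASK1+hep livers (blue). Points are single livers with their replicate number, dashes and bars are means ± SD. ASK1+hep replicate 3 was the highest liver for Apoa1, Apoa2, Apoa4, Apoc1, Apoc3 and Apoe and the lowest for Apob and Apom.

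The 10 genes together took 5.34 ± 0.25% of reads on genes in ASK1f/f livers (SD, n = 5; range 4.96 to 5.66%) and 6.72 ± 1.97% in ASK1+hep livers (SD, n = 5; range 4.34 to 9.64%). Counting error was small beside this, at no more than 0.0147 percentage points by the 95% Wilson interval. The highest share, 9.64%, was that of ASK1+hep replicate 3, and the lowest of all 10 livers, 4.34%, that of ASK1+hep replicate 5. The difference between genotypes was 1.38 percentage points, smaller than the SD of the ASK1+hep livers, and was 0.655 points without ASK1+hep replicate 3 and 1.98 points without ASK1+hep replicate 5. In bulk tissue, more cells of a type and more RNA per cell cannot be told apart.

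Among the genes of high-density lipoprotein, Apoa1, which encodes its main structural protein and the activator of cholesterol esterification, was at 9983, 8798, 8659, 8034 and 6398 FPKM in ASK1f/f livers. It was at 8431, 12693, 17107, 10271 and 6402 FPKM in ASK1+hep livers. Replicates 2, 3 and 4 of ASK1+hep thus exceeded every ASK1f/f liver, while replicates 1 and 5 lay within the ASK1f/f range. The log2 fold change of ASK1+hep against ASK1f/f was 0.32 ± 0.29 (SE), with an adjusted p of 0.821 by limma and an exact two-sided permutation p of 0.270. Apoa2, the second most abundant protein of these particles, was at 10490, 11298, 11694, 11124 and 9333 FPKM in ASK1f/f livers and at 11042, 18081, 34069, 16214 and 9235 FPKM in ASK1+hep livers. The same 3 ASK1+hep livers were above all controls, and replicate 5 was just below all of them. Its log2 fold change was 0.56 ± 0.35 (adjusted p = 0.812 by limma). Without ASK1+hep replicate 3 the log2 fold changes were 0.14 for Apoa1 and 0.29 for Apoa2.

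Apoa4, an exchangeable apolipoprotein made by intestine and by liver under lipid load, varied most of the 10, by 10.8-fold between the highest and the lowest liver. It was at 521, 278, 104, 247 and 322 FPKM in ASK1f/f livers and at 909, 360, 1119, 529 and 251 FPKM in ASK1+hep livers. ASK1+hep replicates 1, 3 and 4 exceeded every control, and the groups overlapped through replicates 2 and 5. The means were 294 ± 151 and 634 ± 368 FPKM (SD, n = 5 each), the log2 fold change was 1.07 ± 0.47 with a 95% interval of 0.05 to 2.09, and the unadjusted p was 0.042, which adjustment over all genes raised to 0.812 (limma). The exact permutation p was 0.0794. Without ASK1+hep replicate 3 the log2 fold change was 0.81 (unadjusted p = 0.102, limma), and without ASK1f/f replicate 3, the lowest liver, 0.74. Exons of the opposite-strand gene Gm47528 overlap 634 of the 1815 exonic bases of Apoa4. Gm47528 was listed at 35 to 308 reads per liver, and since the use of strand in counting is not given, reads of the pair cannot be told apart.

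Apoc1, Apoc3 and Apoe had the same livers above the controls as Apoa2. Apoc1, whose product inhibits lipoprotein lipase and remnant uptake, was at 3667, 3658, 4371, 4171 and 3845 FPKM in ASK1f/f livers and at 3755, 6031, 9216, 6146 and 3705 FPKM in ASK1+hep livers. Apoc3, which encodes another inhibitor of triglyceride clearance, was at 1848, 1957, 2301, 2040 and 1477 FPKM and at 1989, 2976, 6555, 2388 and 1522 FPKM. Apoe, which encodes the ligand through which remnants bind their receptors, was at 11397, 12096, 11161, 11288 and 10825 FPKM and at 11808, 16650, 23258, 16968 and 8810 FPKM. All 3 genes were above every control in ASK1+hep replicates 2, 3 and 4, and Apoe was below every control in replicate 5. The log2 fold changes were 0.47 ± 0.27 for Apoc1, 0.50 ± 0.34 for Apoc3 and 0.37 ± 0.29 for Apoe (SE), with adjusted p-values of 0.812, 0.812 and 0.815 by limma. Without ASK1+hep replicate 3 they were 0.28, 0.18 and 0.21. The control livers were tight for Apoe, with an SD of 0.06 on the log2 scale against 0.54 in ASK1+hep livers.

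Apob, the non-exchangeable backbone of very-low-density lipoprotein and the longest of the 10 genes at 13934 bases, ran the other way. It was at 282, 300, 288, 316 and 362 FPKM in ASK1f/f livers and at 300, 215, 154, 246 and 354 FPKM in ASK1+hep livers. ASK1+hep replicates 2, 3 and 4 were below every control, and replicates 1 and 5 were within the control range. The log2 fold change was -0.33 ± 0.20 (adjusted p = 0.812 by limma, exact permutation p = 0.167), and it was -0.17 without ASK1+hep replicate 3.

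Apoa5, which encodes an enhancer of lipoprotein lipase, was at 515, 704, 332, 419 and 355 FPKM in ASK1f/f livers and at 416, 446, 541, 439 and 349 FPKM in ASK1+hep livers, so that every ASK1+hep liver lay within the control range. Its log2 fold change was -0.04 ± 0.21 with a 95% interval of -0.50 to 0.42, and its sign depended on which liver was left out, since it was 0.12 without ASK1f/f replicate 2. It was the only member with a smaller SD in ASK1+hep livers, 0.23 against 0.44 on the log2 scale. Apom, the carrier of sphingosine-1-phosphate, was at 193, 183, 180, 179 and 150 FPKM in ASK1f/f livers and at 168, 134, 98.2, 228 and 168 FPKM in ASK1+hep livers. ASK1+hep replicate 3 was the lowest and replicate 4 the highest liver, and the log2 fold change of -0.20 ± 0.20 was -0.04 without replicate 3. Apoc2, which encodes the cofactor of lipoprotein lipase, was at 3.54, 4.53, 5.18, 5.74 and 4.40 FPKM in ASK1f/f livers and at 8.51, 4.47, 3.75, 5.00 and 4.73 FPKM in ASK1+hep livers. Its highest value belonged to ASK1+hep replicate 1, without which the log2 fold change of 0.12 ± 0.18 was -0.04.

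In the comparison of genotypes by limma with Benjamini-Hochberg adjustment over 13306 genes, 0 of the 10 members had an adjusted p at or below 0.05, as did 0% of all genes tested. At an unadjusted p under 0.05 stood 1 of 10 members, Apoa4, against 5.77% of all genes in either direction, 3.05% higher and 2.72% lower in ASK1+hep livers. The limma-voom alternative on recovered reads, with and without sample quality weights, also gave 0 members past the adjusted threshold. Of all genes tested it gave 1 with the weights and 0 without them. The groups did not overlap for 0 of 10 members and for 0.864% of all genes tested. The log2 fold change was above 0 for 7 of 10 members, with a median of 0.35, against 48.0% and -0.01 over all genes tested and 60.4% and 0.08 over the 518 genes with a mean of at least 100 FPKM. Without the library labelled ASK1f/f replicate 5, all 10 kept their sign, from -0.28 for Apob to 1.14 for Apoa4, and Apoa5 moved from -0.04 to -0.13. The p-values measure the spread between these livers.

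**Figure D2:**
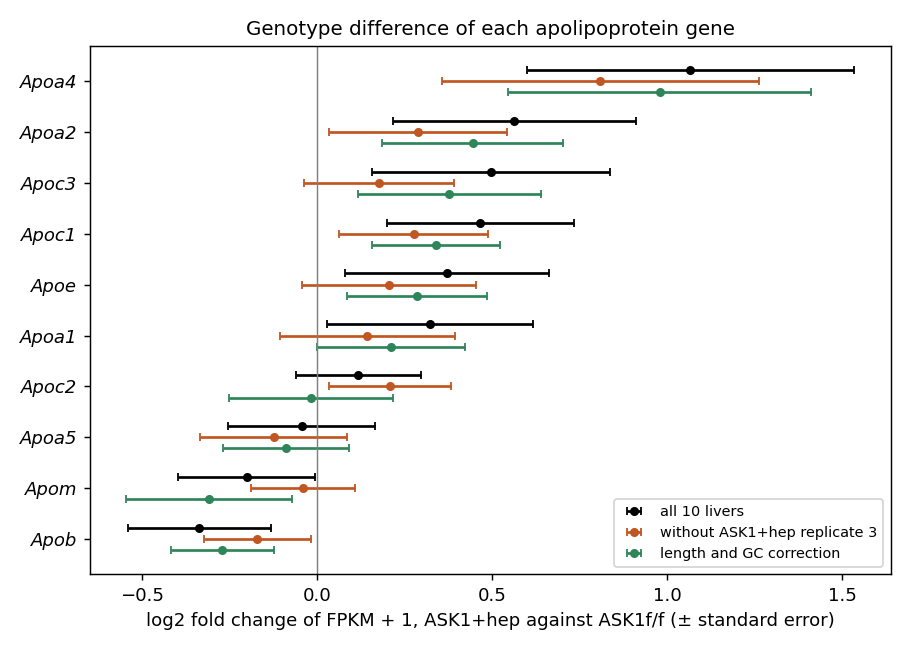
Log2 fold change of FPKM + 1 in ASK1+hep against ASK1f/f livers (x axis; point and bar: estimate ± standard error from limma) for each apolipoprotein gene (y axis), with all 10 livers (black), without ASK1+hep replicate 3 (orange) and after a length and GC correction (green). Apoa4 had the highest estimate under each, at 1.07, 0.81 and 0.98, and Apob was below 0 under each, at -0.33, -0.17 and -0.27.

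The members varied more among ASK1+hep livers than among controls. The SD of log2(FPKM + 1) was larger in ASK1+hep livers for 9 of 10 members, with a median of 0.54 against 0.18, while it was larger for 75.0% of all genes tested and 81.9% of the abundant ones. Without ASK1+hep replicate 3 these shares were 8 of 10 members, 66.0% and 71.4%. The share of members was therefore near that of other abundant genes. In ASK1+hep replicate 3 the members ran from -0.997 (Apob) to 2.10 (Apoa4) on the log2 scale against the control mean, in replicate 2 from -0.52 to 0.75, and in replicate 5 from -0.37 to 0.20.

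**Figure D3:**
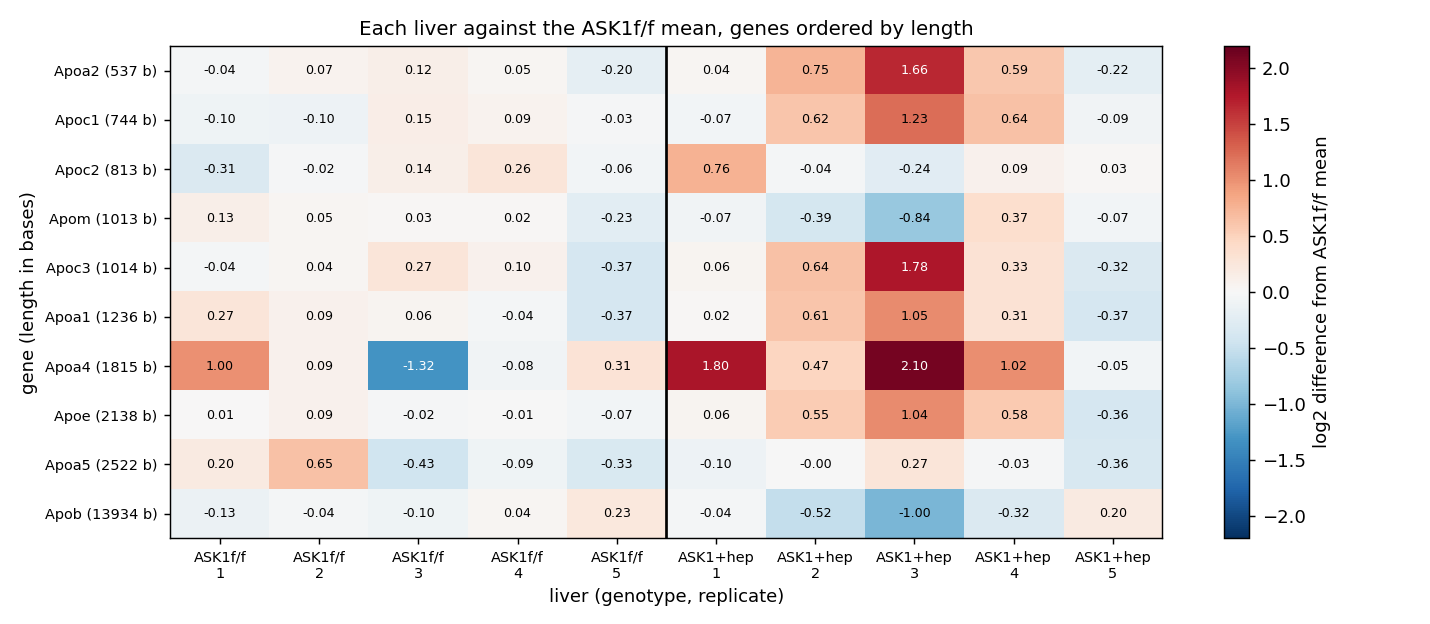
Log2 difference of each liver (x axis: genotype and replicate) from the ASK1f/f mean, on log2(FPKM + 1), for the 10 apolipoprotein genes ordered by gene length in bases (y axis), with red above and blue below the mean. Apoa2, Apoc1, Apoc3, Apoa1 and Apoe are red and Apob is blue in ASK1+hep replicates 2, 3 and 4, and Apom is blue in replicate 3, where it was 0.84 below the mean.

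The levels of 6 members moved with those of other short, abundant genes across livers, or for Apob against them. The share of all genes tested that do so is not given here, so the count is not shown to be particular to the members. The shortest member, Apoa2 (537 bases), had the highest r with them, and the longest, Apob (13934 bases), the lowest. Apoe (2138 bases) was among the 6, while Apoc2 (813 bases, of uncertain level) and Apom (1013 bases) were not. The part of the members' own lengths in this was not tested. Over the 10 livers, Apoa2 correlated with the median deviation of the 92 other short, abundant genes at r = 0.99 (rho = 0.93, permutation test, adjusted p over 10 genes of 0.0005 and 0.0045), and at r = 0.94 without the 2 livers farthest on that measure, ASK1+hep replicates 2 and 3. Apob correlated with it at r = -0.96 (rho = -0.83, permutation test, adjusted p of 0.00065 and 0.0145), and at -0.79 without those livers. Apoc1, Apoc3, Apoe and Apoa1 had r of 0.90 to 0.97 and 0.63 to 0.92 without those livers, with adjusted permutation p-values of 0.0005 to 0.00085 for r and 0.0145 to 0.0436 for rho. Apoa4 (r = 0.49, adjusted permutation p = 0.199), Apoa5 (r = 0.36, p = 0.301) and Apoc2 (r = -0.41, p = 0.236) did not pass. Apom had r = -0.66 (adjusted permutation p = 0.085), which turned to 0.86 without ASK1+hep replicates 2 and 3 and so rested on those livers. After a correction for length and GC content in each liver, the log2 fold changes were 0.45 for Apoa2, 0.34 for Apoc1, 0.38 for Apoc3, 0.29 for Apoe, 0.21 for Apoa1, 0.98 for Apoa4 and -0.27 for Apob, each nearer 0 than before. They were farther from 0 for Apom, at -0.31 against -0.20, and for Apoa5, at -0.09 against -0.04, and -0.02 for Apoc2.

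In ASK1+hep replicate 3, 7 members were above and 3 below the median of abundant genes of 0.5 to 2 times their length. Against its median over the 10 livers, Apoc3 was 1.70 higher on the log2 scale there, while the median of the 246 genes compared with it was 0.59. Apoa4 was 1.71 higher, against a median of 0.27 over 377 such genes, and Apoe 1.00 higher against 0.21 over 369. The distance was smaller for Apoc1 (1.20 against 0.82) and Apoa5 (0.33 against 0.19). Apom, of nearly the length of Apoc3, was 0.82 lower. Single genes of similar length ran from -2.11 to 2.42, or to 2.01 for Apoe and Apoa5. Each of these 6 members lay within the range of its class, but a range over this many genes is wide, so this says little. Apob was 0.93 lower, below all 3 genes compared with it, which ran from -0.54 to 0.18.

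**Figure D4:**
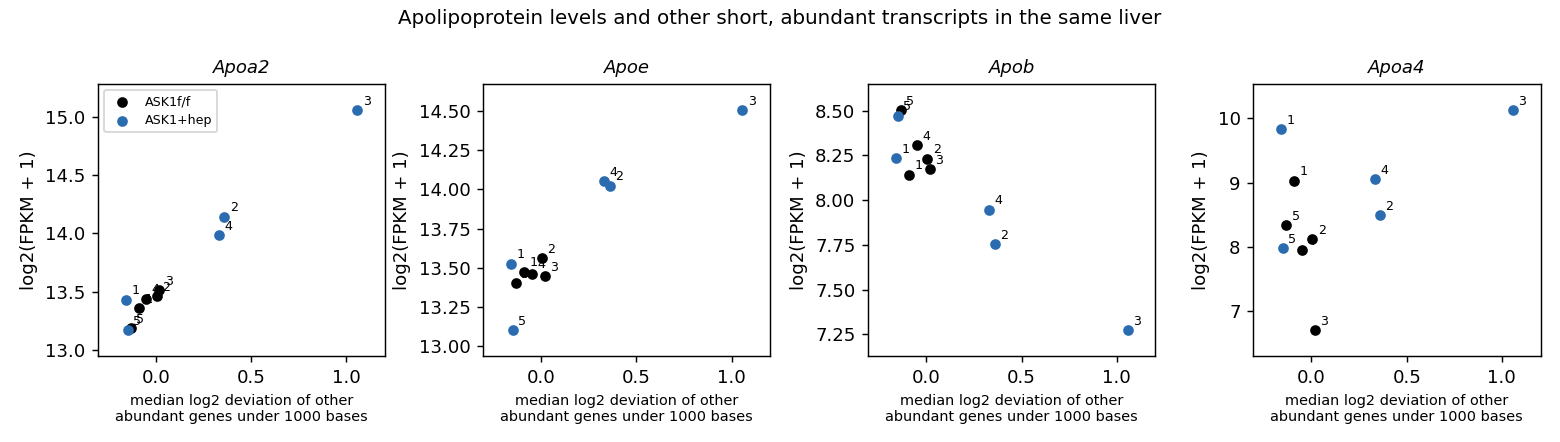
Log2(FPKM + 1) of Apoa2, Apoe, Apob and Apoa4 (y axes) against the median log2 deviation of 92 other abundant genes under 1000 bases in the same liver (x axes), for ASK1f/f (black) and ASK1+hep (blue) livers with replicate numbers. Apoa2 (r = 0.99) and Apoe (r = 0.94) rise and Apob (r = -0.96) falls along the x axis, on which ASK1+hep replicates 2, 3 and 4 stand to the right, while Apoa4 (r = 0.49) is scattered.

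The members fell into a closely related block and a few genes outside it. The share of equally close pairs among other genes is not given here. Genes outside the members reached r of 0.996 with Apoa2 (Atp5e) and with Apoc3 (Mrpl51), so the block is not shown to be particular to apolipoproteins. Of the 45 pairs, 15 had a Pearson r with an adjusted permutation p at or below 0.05, and 10 of these also passed by Spearman's rho. They were all 10 pairs among Apoa1, Apoa2, Apoc1, Apoc3 and Apoe, with r from 0.86 to 0.98, and all 5 pairs of these genes with Apob, with r from -0.98 to -0.93. The pair Apoa1 and Apob had r = -0.98 and rho = -0.99 (adjusted permutation p of 0.000225 and 0.0009), and r = -0.96 without the 2 livers farthest from the Apoa1 median, ASK1+hep replicates 2 and 3. None of the 30 pairs with Apoa4, Apoa5, Apoc2 or Apom passed over all 10 livers, also between neighbours in a cluster, as for Apoa4 and Apoc3 (r = 0.48, adjusted permutation p = 0.281) or Apoc2 and Apoc1 (r = -0.31, adjusted permutation p = 0.413). The level of Apoc2 rests on 42 to 118 reads per liver and is uncertain, so its pairs say little.

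Fewer pairs of the block passed with livers left out. Without the 2 livers farthest from the median of the first gene, 3 of the 10 pairs within the block passed by Pearson and 1 by Spearman, with r from 0.47 to 0.93, while 4 of the 5 pairs with Apob passed by Pearson and 1 by Spearman. Under that setting 2 of the 5 pairs of the block with Apom passed, and 11 of the 45 pairs in all. Without ASK1+hep replicate 3, 14 pairs passed by Pearson, 9 of them within the block and 5 with Apob, but 2 by Spearman. After subtracting the genotype means 15 pairs passed. After the length and GC correction 16 did, 9 of them within the block, 5 with Apob and 1 with Apom.

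**Figure D5:**
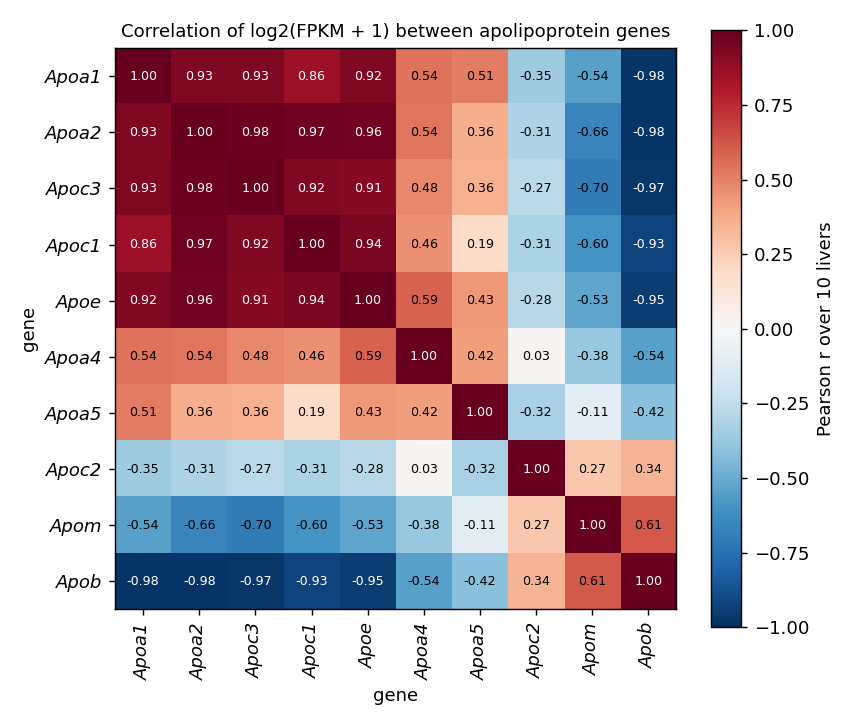
Pearson r over 10 livers between log2(FPKM + 1) of each pair of apolipoprotein genes (both axes), from blue at -1 to red at 1. Apoa1, Apoa2, Apoc3, Apoc1 and Apoe form a block with r of 0.86 to 0.98, and Apob stands against it with r of -0.98 to -0.93.

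Among 10041 genes with a mean of at least 1 FPKM, those most like the 3 most variable members over the 10 livers differed between members. Apoa4 was closest to Elovl5 (r = 0.96), which encodes an elongase of polyunsaturated fatty acids, Tmem86a (r = 0.93) and Osbpl3 (r = 0.93). Apoc3 was closest to Mrpl51, Uqcc3 and Cox4i1, with r of 0.996, 0.990 and 0.990, genes of the mitochondrial ribosome and respiratory chain. Apoa2 was closest to Atp5e, a subunit of ATP synthase, Nol12 and Ptms, with r of 0.996, 0.994 and 0.994. These are the highest of many correlations over libraries that share the length pattern, and are given as a description.

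Around the clusters, Apoc4, which lies between Apoc2 and Apoc1, was at 242, 247, 255, 243 and 241 FPKM in ASK1f/f livers and at 291, 478, 1014, 402 and 199 FPKM in ASK1+hep livers. The controls were thus within a narrow range, and 4 ASK1+hep livers were above and 1 below it. Its log2 fold change was 0.73 ± 0.34 (adjusted p = 0.812 by limma), and 0.40 without ASK1+hep replicate 3.

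Of 102 other genes of lipoprotein metabolism in 5 lists, 98 were tested and 0 had an adjusted p at or below 0.05 (limma), while 7 had an unadjusted p under 0.05, 4 higher and 3 lower, or 7.14% against the 5.77% of all genes. Among other lipoprotein-bound proteins, 1 of 19 stood at that level, Ttr, the carrier of thyroxine and retinol-binding protein, with a log2 fold change of 0.52. Clu, which encodes clusterin (ApoJ), had a log2 fold change of -0.24. Among genes of lipoprotein assembly and secretion, 0 of 21 did, and those with the lowest p were Tmem41b (0.17), Dgat2 (-0.18) and Mia2 (-0.27, and -0.09 without ASK1+hep replicate 3). Of 15 genes of receptors and uptake, Lrp1, a remnant receptor, alone had an unadjusted p under 0.05, but its adjusted p was 0.812 (limma) and its groups overlapped. Its log2 fold change was -0.40, and -0.23 without ASK1+hep replicate 3. The next lowest p-values were those of Vldlr (0.11), which was near 0 FPKM, and Lrpap1 (-0.19).

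Of 16 genes of lipases, lipid transfer and efflux, Npc2, which binds cholesterol in lysosomes, was at 10.5 to 11.7 FPKM in ASK1f/f livers and at 7.35 to 10.4 FPKM in ASK1+hep livers, with means of 11.3 ± 0.51 and 9.14 ± 1.14 FPKM. Its groups did not overlap (log2 fold change -0.28, exact permutation p = 0.00794, the smallest that 252 splits can give), as for 1 of the 98 genes against 0.864% of all genes tested. Abca1, the exporter that loads cholesterol onto ApoA-I, had a log2 fold change of -0.36, and -0.23 without ASK1+hep replicate 3. Angptl8, an inhibitor of lipoprotein lipase, had 0.94, and 0.62 without it. Of 27 transcriptional regulators, 3 were higher and 1 lower at an unadjusted p under 0.05. Nr0b2, which encodes the corepressor SHP, had a mean of 19.1 ± 8.13 FPKM in controls and of 40.8 ± 12.8 FPKM with ASK1 overexpression (SD, n = 5 each), with a log2 fold change of 1.08 ± 0.27 and an adjusted p of 0.712 (limma). Jun, which encodes a substrate of the kinase JNK, had a log2 fold change of 1.27, and Onecut1, a hepatocyte factor, of -0.68. The other gene, Nr1d1, had a log2 fold change of 0.61 and is named here after its value was seen.

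Summed over 10 hepatocyte markers, levels ran from 27042 to 35611 FPKM in controls and from 28891 to 36446 FPKM with ASK1 overexpression. Alb made up most of each sum, which hides the other markers. The log2 fold change was above 0 for 3 markers and below 0 for 7, with a median of -0.04. In ASK1+hep replicate 3, Cps1 was at 94.9 FPKM, against 454 to 583 FPKM in controls. Ttr was at 8129 FPKM there, against 3337 to 4209 FPKM in controls. Of these markers, Ttr is also in a list above. Macrophage markers summed to 93.4 to 160 and 60.3 to 149 FPKM, with 9 of 10 tested and 0 at an unadjusted p under 0.05 (limma). The log2 fold change was below 0 for all 9, with a median of -0.21, and the part of this in the values of the apolipoprotein genes was not tested. Enterocyte markers, relevant because Apoa4 and Apob are also made in intestine, summed to 140 to 173 and 137 to 267 FPKM, with 3 of 10 tested and Sis at 0 in every liver. The highest sum, 267 FPKM, was in ASK1+hep replicate 3, where Fabp2 was at 233 FPKM and Anpep at 33.8 FPKM. In that liver Slc5a1 was at 0.389 and Vil1 at 0.020 FPKM, and Sis, Lct, Alpi, Cdh17, Muc13 and Krt20 were at 0.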

How the data were processed

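Bulk liver RNA sequencing of 10 mice was used. According to the study's methods the authors' provider purified poly-A RNA, cleaned and mapped reads with Hisat2, counted them with FeatureCounts and estimated expression as FPKM. The authors deposited FPKM per gene and compared genotypes with DESeq2, a count test that was not repeated on FPKM. The submitters' processing notes name fastp. The build and settings are not given in the sources used here. Gene positions were the same as in GENCODE M21 (GRCm38) for 98.3% of matched genes and for 10 of 10 members.

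FPKM multiplied by gene length gave whole reads in 100% of values, within 0.01 reads, and served for depth and filtering. Tested were the 13306 genes that reached 10 reads, at the depth of the median library, in 5 or more livers and had 15 or more reads over all livers. The test was limma (version 3.58.1, R version 4.3.3) with a trend on log2(FPKM + 1). Fold changes on this scale understate those of low genes. Permutation tests over the 252 splits and correlations (100000 permutations) used scipy 1.17.1, and figures matplotlib 3.10.9. The comparison was tested on simulated data with known changes. Libraries were scaled as deposited. The library size implied by FPKM was not the reads on genes. It was 0.89 times that number in ASK1+hep replicate 3, the lowest, and 1.06 times in ASK1f/f replicate 1, the highest.

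The members and lists were chosen with earlier results of these data known. Named were all members, up to 3 genes of each list with the lowest p, Map3k5, Fgf21, genes overlapping a member, and the 3 genes most like each of the 3 most variable members. Alternatives were filters, a pseudocount of 0.1, limma-voom, other scalings, the replicate block, the animal tag prefix and leaving out each liver. The length and GC correction, by splines in each liver, and the relation to short, abundant genes were added after seeing the data. Replicate numbers were not taken to pair livers. Intervals of shares cover counting error only.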

Additional observations from a re-analysis of the deposited data

Results flagged for a closer look

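Of 22 groups of 5 values examined, 2 held a liver that stood far from the other 4 by the gap to its neighbour over the range, with a limit of 0.71, and chance marks about 1 in 20 groups. Apoc2 in ASK1+hep replicate 1 was at 8.51 FPKM (0.738), a level that rests on few reads. Apoc3 in ASK1+hep replicate 3 was at 6555 FPKM (0.711), in the liver where other short, abundant transcripts were also highest.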

How the results depend on the processing

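Over the 22 alternatives run, 0 members and 0 pathway genes passed the adjusted threshold. Of all genes tested, 1 passed under limma-voom with quality weights, 1 without ASK1+hep replicate 5 and 0 in the other alternatives. The outcome for the members and pathway genes therefore says little about them. The count of members at an unadjusted p under 0.05, 1 in the comparison as reported, was 0 with no filter, with scaling by all reads, with scaling by reads on non-members, and with the length and GC correction without ASK1+hep replicate 3. It was 4 under limma-voom with quality weights, and ran from 0 to 4 when single livers were left out, with 4 without ASK1+hep replicate 5. Over all 13306 genes tested, that count was 768 as reported and 972 with quality weights. It was 557 to 1724 when single livers were left out, with 1724 also without ASK1+hep replicate 5. The pathway count of 7 was 12 under limma-voom with quality weights and 12 under the length and GC correction with the replicate block, and ran from 5 to 14 when single livers were left out, with 14 without ASK1+hep replicate 1. Over all genes tested, 999 of 13297 stood at that level with the correction and block, and 1178 of 13306 without ASK1+hep replicate 1. The member and pathway counts thus rose in settings where the count over all genes also rose. The cause of these changes was not tested. The log2 fold change of Apoa5, -0.04 as reported, ran from -0.15 to 0.12 over single livers left out, and was above 0 in 3 of these cases (0.01, 0.12 and 0.04). That of Apoc2 ran from -0.041, which needed ASK1+hep replicate 1 to be left out, to 0.21, and was -0.017 with the length and GC correction and -0.017 when the replicate block was added to it.

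With the replicate block, 880 genes in place of 768 and 0 members had an unadjusted p under 0.05, where Apoa4 had an unadjusted value of 0.0541 by limma. Animals of the same number carry consecutive tags in 4 of 5 cases. The paper calls the controls littermates, but no source states which of these animals share a litter or cage. Livers of the same number correlated at 0.021 to 0.174 in their deviations, all 5 above 0 and 2 above 0.1, and livers of different numbers at -0.195 to 0.118. ASK1f/f replicates 1, 2, 4 and 5 correlated best with the ASK1+hep liver of their own number, and ASK1f/f replicate 3 with ASK1+hep replicate 5. A pairing by number can therefore not be excluded. The numbers were not taken as pairs because no source states one. Scaling by all reads moved the median of all genes from -0.01 to -0.05, and the share higher among genes at an unadjusted p under 0.05 from 52.9% to 31.4%, or to 35.2% with scaling by reads on non-members.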
